A study of Mus musculus with 6 samples.

Results

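The genes of the laminin chains and the integrin subunits were followed through 4 stages of mouse cells, from epiblast stem cells (EpiSCs) through neural rosettes and oligodendrocyte progenitor cells (OPCs) to oligodendrocytes. Members were the genes with a single symbol in the array annotation that began with Lama, Lamb or Lamc and a number, or with Itga or Itgb and a number, together with Itgad, Itgae, Itgal, Itgam, Itgav and Itgax. Genes whose names began with Itgb1bp or Itgb3bp were left out. The rule gave 37 genes, 10 of laminin chains and 27 of integrin subunits, out of 19938 genes measured. Where several rows carried the same symbol, which was the case for 1 member (Itgad), the row with the highest mean was used.

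All cells were of mouse strain 129 and descended from EpiSCs in culture. There was 1 array of EpiSCs, which were kept with serum replacement and 10 ng/ml FGF2. The second array came from day 5 rosettes, made with SB431542, Dorsomorphin, Noggin, retinoic acid (RA) and sonic hedgehog (SHH). OPCs came from dissociated rosettes and were expanded in a medium holding FGF2, PDGF-AA and SHH. For oligodendrocytes, thyroid hormone was added to such OPCs while FGF2 and PDGF-AA were withdrawn. OPCs and oligodendrocytes had 2 arrays each, 1 at passage 11 and 1 at passage 3. These are cultures made from a stem cell, not cells taken from brain, and the labels do not say how many lines or separate differentiations they stand for.

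Laminins are trimers of an alpha, a beta and a gamma chain that polymerise into the sheet of the basement membrane. Integrins are receptors of 1 alpha and 1 beta subunit that bind laminins and other matrix proteins and couple them to the actin cytoskeleton through adaptor proteins. In rat oligodendrocyte lineage cells, the laminin receptor made of the alpha 6 and beta 1 subunits and several integrins with the alpha v subunit have been described, and laminin is known to favour survival and myelination.

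Values are log2 expression after RMA and are compared only between arrays for the same gene, because the probes of different genes respond differently. Differences are log2 differences, with a value of 1 for a 2-fold change, and carry a standard error (SE) from limma where a group has 2 arrays. The arrays carried markers of their labels, though not of those alone. Of 8 pluripotency markers, 7 were lower in the rosette than in EpiSCs by at least 2-fold, all 8 OPC markers rose in OPCs over the rosette, and all 9 measured oligodendrocyte markers rose in oligodendrocytes over OPCs, each rise with a limma adjusted p under 0.05. All 8 rosette and neuroepithelium markers were higher in the rosette than in EpiSCs (median 1.80), as were all 9 neuron markers (median 3.32). The log2 of the summed level of the 8 OPC markers was 15.40 and 15.30 in OPCs of passages 11 and 3. In oligodendrocytes of passages 11 and 3 that level was still 15.25 and 15.14. The RNA is of whole cultures, so fewer cells of a type and less RNA per cell cannot be told apart.

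Across the 6 arrays, 17 of the 37 genes had a range of at least 1 log2 unit (45.9%, against 28.5% of all genes), and 11 had a range of at least 2. Another 15 members, 3 laminins and 12 integrins, were never above 9.005, the median of all gene values. A median has as many values below it as above it, and the share of all genes never above it is not given here. Those 15 had ranges between 0.14 (Lama2) and 0.84 (Itgb3) over the arrays. Lama2, the alpha chain of muscle and peripheral nerve laminin, lay between 7.66 and 7.81. The 15 also included Lama3 and Lamb3, chains of the laminin of skin and other epithelia, with ranges of 0.33 and 0.31. Itgb4, the beta subunit of hemidesmosomes, lay between 8.71 and 8.99. The collagen receptor subunits Itga10 and Itga11 had ranges of 0.24 and 0.30, Itgb6, an epithelial partner of alpha v, 0.34, and Itgb2l 0.25. No detection call was used, so values this low can be background.

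A further 5 members exceeded the median on at least 1 array and had ranges under 1: Lamc3, Itga2b, Itga9, Itgad and Lamb2. Lamc3, a gamma chain, lay between 9.21 and 9.45, and Itga2b, the platelet integrin subunit, between 8.70 and 9.07. Itga9, which binds tenascin, lay between 9.11 and 9.62. Itga2, a collagen receptor subunit, had 8.32 in EpiSCs, 8.13 in the rosette, 8.53 and 9.16 in OPCs of passages 11 and 3, and 9.32 and 9.37 in oligodendrocytes of passages 11 and 3. It was above the median of all gene values in passage 3 OPCs and on both oligodendrocyte arrays.

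Of the 7 subunits known from leukocytes, 6 were among those 15 genes: Itgal, Itgam, Itgax, Itgae, Itgb2 and Itgb7. Their ranges over the arrays lay between 0.26 (Itgal) and 0.59 (Itgam). The seventh, Itgad, stood at 9.27 in EpiSCs, 9.24 in the rosette, 9.66 and 9.12 in OPCs of passages 11 and 3, and 9.61 and 9.06 in oligodendrocytes of passages 11 and 3. Its second row in the table was lower, between 7.77 and 8.04. The markers of microglia and other leukocytes were low with them: 9 of 12 never exceeded the median of all gene values, and the pan-leukocyte gene Ptprc lay between 7.63 and 7.88. The share of all genes that never exceeded it is not given beside this count either.

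**Figure D1:**
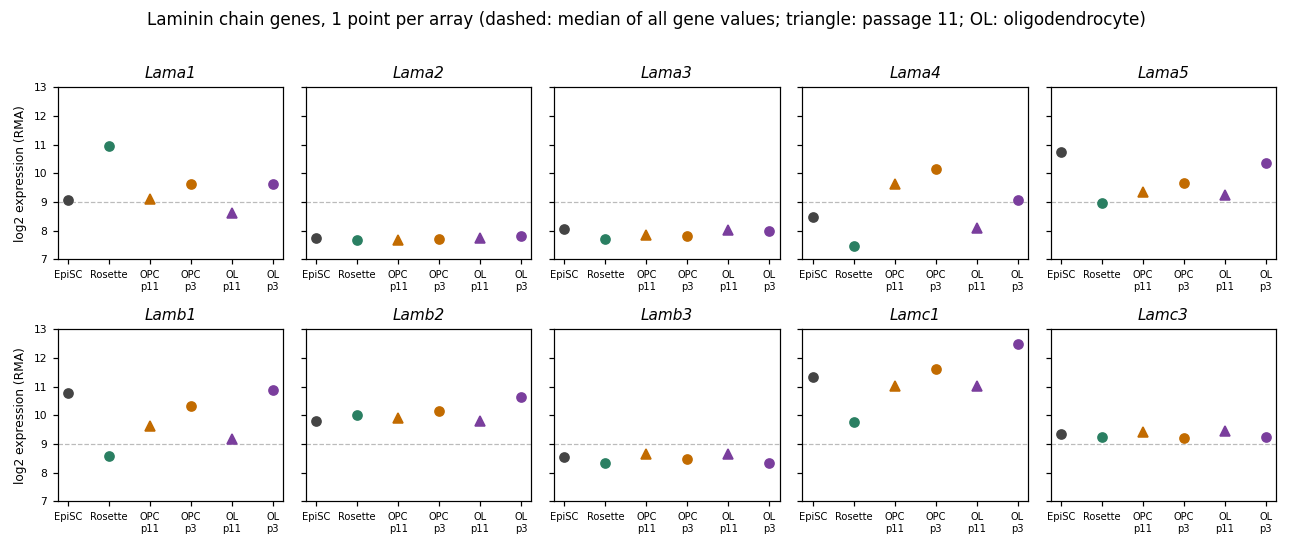
Log2 expression (vertical axis) of the 10 laminin chain genes on each of the 6 arrays (horizontal axis), 1 point per array, with triangles for passage 11 and a dashed line at the median of all gene values, 9.005. Lama4, Lama5, Lamb1 and Lamc1 were lower in the rosette than in EpiSCs by at least 2-fold, Lama4 only without quantile normalization, while Lama1 was highest in the rosette at 10.96.

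The first comparison asked how the laminin and integrin genes differ between day 5 rosettes and EpiSCs. Lamb1 and Lamc1, the beta and gamma chains shared by most laminins, were lower in the rosette, by 4.57-fold and 3.02-fold. Lama5, the alpha chain of a laminin on which pluripotent cells are commonly grown, was 3.45-fold lower. Lama1, the alpha chain of early embryonic basement membranes, was 3.67-fold higher. Among the integrins Itgb8, a beta subunit that pairs with alpha v to activate latent TGF-beta, was 14.8-fold higher, and Itgb5, another partner of alpha v, was 6.67-fold lower. Each side has 1 array, so these are values with no replicate and no test. The EpiSC value of Itgb8 and the rosette values of Itgb5, Lamb1 and Lama5 were below the median of all gene values and can be background, so their folds may understate the difference.

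In all, 8 of the 37 members were lower in the rosette by at least 2-fold (21.6%, against 3.69% of all genes), and 3 were at least 2-fold higher (8.11%, against 6.91% of all genes). The median difference was -0.27 over the members, and -0.07 over all genes. At least 4-fold apart were 3 members (8.11%, against 2.54% of all genes). Itgb8 was the 1 higher in the rosette (2.70%, against 1.75% of all genes), and Itgb5 and Lamb1 the 2 lower (5.41%, against 0.797% of all genes). The log2 of the summed level of 8 endoderm markers was 11.45 in the rosette and 11.85 in EpiSCs, and that of 9 neuron markers 15.70 in the rosette and 13.53 in EpiSCs. Their part in the laminin and integrin values was not tested.

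Among the laminins, Lamb1 had 8.58 in the rosette and 10.78 in EpiSCs, and Lamc1 had 9.75 in the rosette and 11.35 in EpiSCs. Lama5 had 8.95 in the rosette and 10.74 in EpiSCs. Lama4, an alpha chain of vessel basement membranes, was low on both arrays, at 7.46 in the rosette and 8.50 in EpiSCs, and its difference of -1.04 was -0.94, under 2-fold, after quantile normalization. Lama1 had 10.96 in the rosette and 9.08 in EpiSCs. The beta chain Lamb2 differed by 0.20, with 10.00 in the rosette and 9.80 in EpiSCs, so of the 2 beta chains above the median Lamb1 had by far the larger difference.

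Among the integrins, Itgb8 had 12.15 in the rosette and 8.26 in EpiSCs, a range of 3.89. Itga4, whose product binds VCAM1 and fibronectin, had 9.55 in the rosette and 8.12 in EpiSCs. Both were below the median of all gene values in EpiSCs and above it in the rosette. Itgb5 had 8.95 in the rosette and 11.69 in EpiSCs, the lowest difference among the members, -2.74. Itga3, an alpha subunit of laminin receptors, had 8.70 in the rosette and 10.33 in EpiSCs, and Itga1, which binds collagens and laminins, had 7.75 in the rosette and 9.26 in EpiSCs. Itga8, a partner of beta 1 that binds nephronectin, had 7.80 in the rosette and 9.004 in EpiSCs. The rosette values of Itgb5, Itga3, Itga1 and Itga8, and the EpiSC value of Itga8, were below that median and can be background. Lower by under 2-fold were Itga5, the fibronectin receptor subunit, with a difference of -0.93, and Itga6, a laminin receptor subunit, with -0.78. The subunits with the most partners, Itgb1 and Itgav, differed by -0.12 and -0.15.

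**Figure D2:**
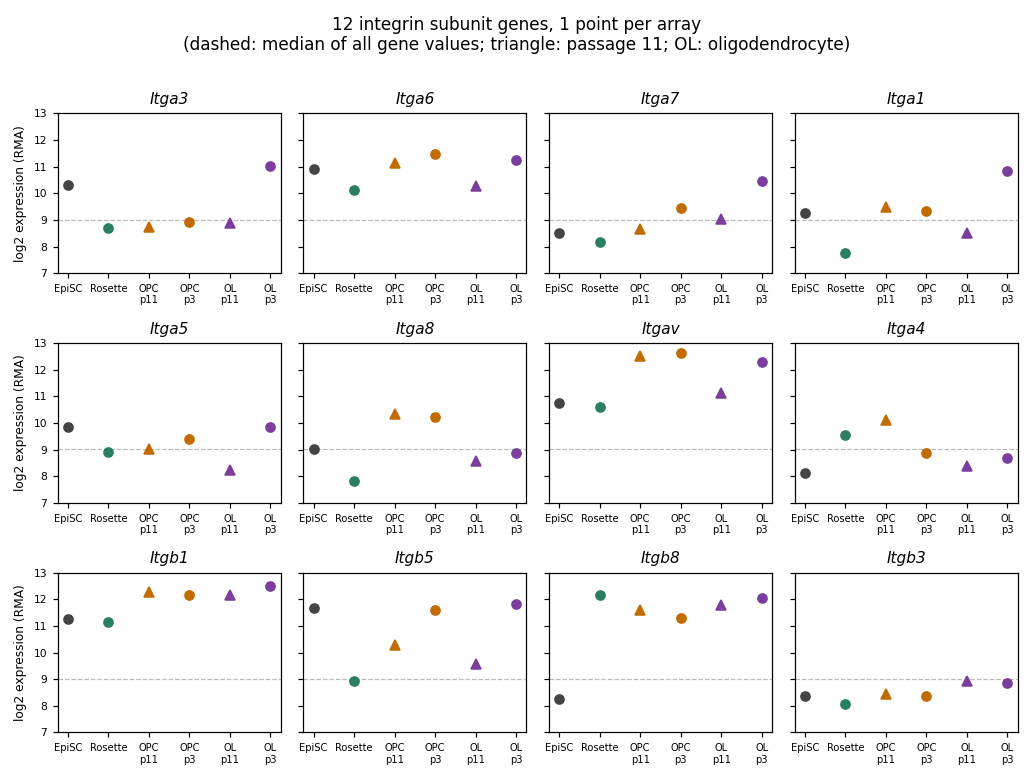
Log2 expression (vertical axis) of 12 integrin subunit genes on each of the 6 arrays (horizontal axis), 1 point per array, with triangles for passage 11 and a dashed line at the median of all gene values, 9.005. Itgb8 was low in EpiSCs only, Itga8 was highest in both OPC arrays, and Itga3 and Itga1 were highest in oligodendrocytes of passage 3.

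The start regions of 5 members are shown. Itgb8, Itgb5, Lamb1 and Lama5 had the largest differences between rosette and EpiSCs among the members with a window, and Itga8 was the only member called in a tested comparison. Each is the RefSeq promoter window on GRCm38.p6, from 250 bases before to 50 bases after the gene's start, written 5′ to 3′ on the gene's strand. Capitals mark GC boxes, GGGCGG on either strand, the motif bound by the Sp1 family.
Itga8, chr2:12301895-12302194, minus strand: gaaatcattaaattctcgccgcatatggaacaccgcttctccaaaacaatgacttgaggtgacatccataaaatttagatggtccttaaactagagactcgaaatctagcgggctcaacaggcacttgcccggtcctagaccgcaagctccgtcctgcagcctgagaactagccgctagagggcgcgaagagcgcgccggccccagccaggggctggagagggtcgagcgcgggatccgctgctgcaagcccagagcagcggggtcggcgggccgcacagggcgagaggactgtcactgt
Itgb8, chr12:119238227-119238526, minus strand: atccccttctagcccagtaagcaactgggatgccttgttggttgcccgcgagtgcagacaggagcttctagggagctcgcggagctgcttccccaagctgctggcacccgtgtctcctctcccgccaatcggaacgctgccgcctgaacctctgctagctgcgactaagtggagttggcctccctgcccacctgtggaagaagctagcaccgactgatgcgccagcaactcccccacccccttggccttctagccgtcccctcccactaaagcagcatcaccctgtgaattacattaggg
Itgb5, chr16:33829415-33829714, plus strand: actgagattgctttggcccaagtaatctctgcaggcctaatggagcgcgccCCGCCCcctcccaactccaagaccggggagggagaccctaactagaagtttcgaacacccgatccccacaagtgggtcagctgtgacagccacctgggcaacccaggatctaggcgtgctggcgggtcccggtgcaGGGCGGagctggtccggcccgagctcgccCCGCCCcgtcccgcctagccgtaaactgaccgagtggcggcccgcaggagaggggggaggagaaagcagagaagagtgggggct
Lama5, chr2:180225810-180226109, minus strand: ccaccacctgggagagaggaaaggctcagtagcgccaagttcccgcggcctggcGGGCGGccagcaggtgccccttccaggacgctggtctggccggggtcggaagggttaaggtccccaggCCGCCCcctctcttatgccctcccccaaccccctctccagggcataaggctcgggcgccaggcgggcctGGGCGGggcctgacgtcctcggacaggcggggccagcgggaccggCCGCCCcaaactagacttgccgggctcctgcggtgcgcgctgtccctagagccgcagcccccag
Lamb1, chr12:31265043-31265342, plus strand: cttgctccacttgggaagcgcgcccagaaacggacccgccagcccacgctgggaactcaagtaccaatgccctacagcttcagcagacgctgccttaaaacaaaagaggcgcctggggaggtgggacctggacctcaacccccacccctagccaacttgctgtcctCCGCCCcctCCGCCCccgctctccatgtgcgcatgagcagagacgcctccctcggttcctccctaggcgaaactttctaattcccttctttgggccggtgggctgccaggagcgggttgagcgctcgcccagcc
Itgb5 held 3 GC boxes, Lama5 4 and Lamb1 2, while Itga8 and Itgb8 held 0. Of the other members with a window and a difference of at least 2-fold, Itga4, higher in the rosette, held 1, Itga1, lower there, held 0, and the 2 windows of Itga3, also lower, held 1 and 3. Among all 32851 RefSeq windows, 35.7% held at least 1, as did 12 of the 27 windows found for 24 members (44.4%). An AP-1 site, TGANTCA on either strand, was in 3 of those 27 windows (11.1%, against 7.81% of all windows). A TEAD site, GGAATG on either strand, was also in 3 (11.1%, against 14.7% of all windows). The motifs were chosen with the values known, and a match describes letters in these windows only.

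Next, OPCs were set against the day 5 rosette array. Itga8 rose by 2.48 ± 0.20 (SE, 5.60-fold, limma adjusted p = 0.00796), with 2 OPC arrays against 1 rosette array. It was the only member called: 1 of 37 (2.70%, against 1.26% of all genes called higher), and 0 of 37 were called lower (1.87% of all genes). At an unadjusted p under 0.05 there were 8 members (21.6%, against 15.4% of all genes), and 624 genes were called in all (3.13%). Further members stood far above the rosette on both OPC arrays without passing the test, among them the vessel laminin chain Lama4 at 2.44 ± 0.45 (adjusted p = 0.0631) and Itgav at 1.97 ± 0.46 (adjusted p = 0.113). The rosette values of Itga8 and Lama4 were below the median of all gene values and can be background. With a single rosette array, the fit takes its spread from the OPC and oligodendrocyte pairs.

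By size alone, 9 of 37 members were at least 2-fold higher on both OPC arrays than on the rosette array (24.3%, against 2.28% of all genes). They were Itga1, Itga6, Itga8, Itgav, Itgb1, Itgb5, Lama4, Lamb1 and Lamc1. One member, Lama1, was at least 2-fold lower on both (2.70%, against 3.02% of all genes). The median difference was 0.21 over the members, and 0.02 over all genes.

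Itga8 had 10.35 and 10.23 in OPCs of passages 11 and 3, against 7.80 in the rosette. The OPC arrays differed by 0.11, and Itga8 kept its call under all alternatives run, with adjusted p between 8.42e-07 and 0.0385. Itgav, the alpha subunit that pairs with several beta subunits, had 12.50 and 12.62 in OPCs of passages 11 and 3, against 10.59 in the rosette. Itgb1, the beta subunit of most laminin and collagen receptors, had 12.26 and 12.17 in OPCs of passages 11 and 3, against 11.13 in the rosette (1.08 ± 0.20, adjusted p = 0.0645). Its laminin-binding partner Itga6 had 11.13 and 11.48 in OPCs, against 10.11 in the rosette (1.19 ± 0.41, adjusted p = 0.258). For each of these subunits both OPC arrays lay above the rosette array.

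For Lamb1, Lamc1 and Itgb5 both OPC arrays lay between the rosette and EpiSC values or near the EpiSC value, with a wide gap between passages. Lamb1 had 9.64 and 10.33 in OPCs of passages 11 and 3, against 8.58 in the rosette (1.40 ± 0.72, adjusted p = 0.471). Lamc1 had 11.04 and 11.60 in OPCs, against 9.75 in the rosette (1.57 ± 0.62, adjusted p = 0.323), and its OPC mean was 0.03 below the EpiSC array. Itgb5 had 10.28 and 11.59 in OPCs, against 8.95 in the rosette (1.99 ± 0.99, adjusted p = 0.459). Lama4 had 9.63 and 10.16 in OPCs of passages 11 and 3, against 7.46 in the rosette, and its OPC mean was also 1.40 above the EpiSC array.

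Lama1 and Itgb8 had been higher in the rosette than in EpiSCs, and in OPCs only Itgb8 stayed far above EpiSCs. Lama1 had 9.12 and 9.65 in OPCs of passages 11 and 3, against 10.96 in the rosette (-1.58 ± 0.46, adjusted p = 0.181). Itgb8 had 11.61 and 11.31 in OPCs, against 12.15 in the rosette (-0.69 ± 0.22, adjusted p = 0.224), and its OPC mean was 3.20 above the EpiSC array, against 0.30 for Lama1. Itga3, low in the rosette, had 8.72 and 8.93 in OPCs of passages 11 and 3, against 8.70 in the rosette, a difference of 0.13 ± 0.83. These Itga3 values were all below the median of all gene values and can be background, so their closeness says little. Itga4 had 10.10 and 8.88 in OPCs of passages 11 and 3, against 9.55 in the rosette, so the rosette lay between the OPC arrays. With passage as a block, which takes the gap between passages out of the spread, 4 members were called: Itga8 (adjusted p = 0.0116), Lama4 (0.0135), Lama1 (0.0308) and Itgb5 (0.0470). Over their alternatives, adjusted p ran between 5.57e-06 and 0.156 for Lama4, between 2.44e-04 and 0.542 for Lama1, and between 0.00202 and 0.864 for Itgb5.

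**Figure D3:**
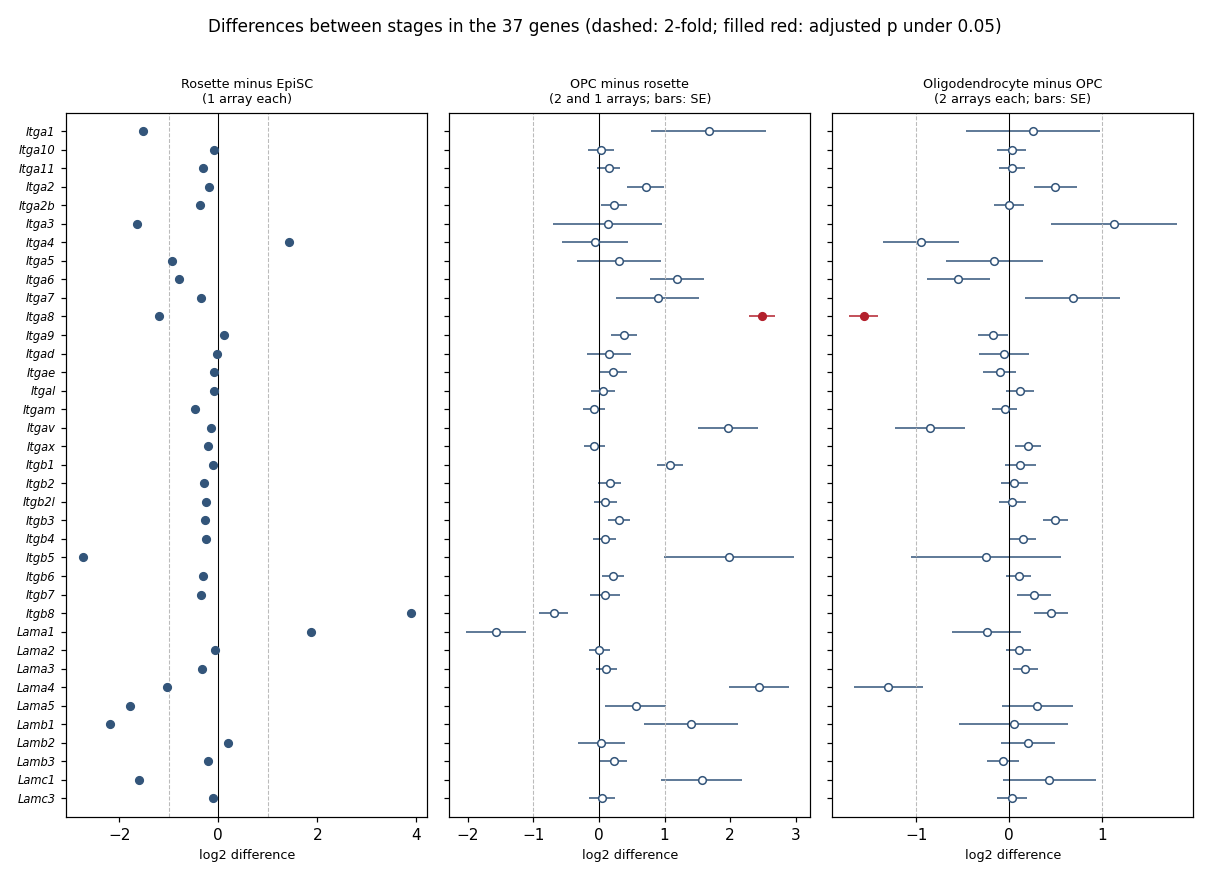
Log2 differences (horizontal axis) of all 37 genes (vertical axis) for rosette minus EpiSC, OPC minus rosette and oligodendrocyte minus OPC, with the SE from limma as bars where a group has 2 arrays and dashed lines at 2-fold. Itga8, the filled red point, was called in both tested comparisons, at 2.48 in OPCs and -1.57 in oligodendrocytes.

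Oligodendrocytes were then compared with the OPCs of the same passages. Itga8 was the only member called, and it fell by 1.57 (SE 0.16, 2.97-fold, limma adjusted p = 0.0407), with 2 arrays a group. That is 1 of 37 members (2.70%, against 0.0502% of all genes called lower), and 0 of 37 were called higher (0.396% of all genes). Over all genes 89 were called (0.446%), and at an unadjusted p under 0.05 there were 3 members, Itga8, Itgb3 and Lama4 (8.11%, against 12.3% of all genes). Lama4 was lower at both passages too, at -1.30 ± 0.37, and did not pass (adjusted p = 0.260). No member was at least 2-fold higher in oligodendrocytes at both passages, which 1.14% of all genes were.

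Itga8 had 8.59 and 8.85 in oligodendrocytes of passages 11 and 3, against 10.35 and 10.23 in OPCs of passages 11 and 3. Both oligodendrocyte values, like the EpiSC value of 9.004, were below the median of all gene values and can be background. The fold of the fall may therefore be understated. The call of Itga8 was lost with passage as a block (adjusted p = 0.0544), after quantile normalization (0.0737), without dim genes (0.0529) and without OPC replicate 1 or 2 (0.204 and 0.268). Over all its alternatives the difference lay between -1.70 and -1.44, and adjusted p between 5.11e-05 and 0.268.

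Lama4 had 8.09 and 9.09 in oligodendrocytes of passages 11 and 3, against 9.63 and 10.16 in OPCs. Itga8 and Lama4 were the 2 members at least 2-fold lower at both passages (5.41%, against 0.371% of all genes), and the only 2 at passage 3 (0.527% of all genes). At passage 11 there were 4, with Itga4 and Itgav (10.8%, against 2.48% of all genes). Itgav had 11.12 and 12.27 in oligodendrocytes of passages 11 and 3, against 12.50 and 12.62 in OPCs (-0.86 ± 0.38, adjusted p = 0.463). Without oligodendrocyte replicate 1, the passage 3 array, Itgav was at -1.43, and without replicate 2, the passage 11 array, at -0.28. Itga4 had 8.39 and 8.68 in oligodendrocytes, against 10.10 and 8.88 in OPCs of passages 11 and 3 (-0.95 ± 0.41, limma adjusted p = 0.446). Its 3.28-fold gap at passage 11 thus stood beside one of 1.14-fold at passage 3. Lama4 in passage 11 oligodendrocytes, and Itga4 in all but passage 11 OPCs, were below the median of all gene values. Those values can be background.

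For the beta subunits Itgb1 and Itgb8 the differences were small beside their SE or within 1 log2 unit at both passages, which does not show that they were equal. Itgb1 had 12.18 and 12.48 in oligodendrocytes of passages 11 and 3, against 12.26 and 12.17 in OPCs (0.12 ± 0.16, adjusted p = 0.926). Itgb8 had 11.77 and 12.04 in oligodendrocytes, against 11.61 and 11.31 in OPCs (0.45 ± 0.18, adjusted p = 0.421). Itgb3, a further partner of alpha v, was dim but differed alike at both passages, by 0.50 at passage 11 and 0.49 at passage 3 (adjusted p = 0.251). Itga6 had 10.28 and 11.23 in oligodendrocytes, against 11.13 and 11.48 in OPCs (-0.55 ± 0.34, adjusted p = 0.646).

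The laminin-binding alpha subunits Itga3 and Itga7 and the collagen-binding Itga1 were higher in oligodendrocytes at passage 3 by at least 2-fold (3 of 37 members, 8.11%, against 2.65% of all genes). Itga3 had 8.88 and 11.04 in oligodendrocytes of passages 11 and 3, against 8.72 and 8.93 in OPCs. Itga1 had 8.52 and 10.83 in oligodendrocytes, against 9.50 and 9.34 in OPCs. Itga7 had 9.04 and 10.46 in oligodendrocytes, against 8.67 and 9.45 in OPCs. Itga3 in OPCs, Itga3 and Itga1 in passage 11 oligodendrocytes and Itga7 in passage 11 OPCs were below the median of all gene values. Those values can be background. At passage 11 none of the 37 was at least 2-fold higher (2.55% of all genes were), and Itga1 was lower by 1.96-fold. The values of Itga3, Itga1 and Itga7 therefore rest on the passage 3 oligodendrocyte array. Itga3 differed by 1.13 ± 0.68 with both arrays and by 0.047 without that one. Itga1 differed by 0.26 ± 0.72 with both and by -0.89 without it. Itga7 differed by 0.68 ± 0.51 with both and by -0.026 without it, and by 0.36 between the passage 11 arrays. Without the passage 11 array the differences were 2.21 for Itga3, 1.41 for Itga1 and 1.39 for Itga7.

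Last, passage 11 was set against passage 3 in OPCs and in oligodendrocytes. Part of the laminin and integrin genes stood lower at passage 11 in oligodendrocytes, where 10 of 37 members were at least 2-fold lower (27.0%, against 3.16% of all genes) and 0 were at least 2-fold higher (0.772% of all genes). In OPCs 1 member, Itgb5, was at least 2-fold lower (2.70%, against 0.487% of all genes) and 1, Itga4, at least 2-fold higher (2.70%, against 0.14% of all genes). With cell type as a covariate, limma called 0 of 19938 genes at an adjusted p under 0.05 (0.0%), while 2769 genes and 11 of the members had an unadjusted p under 0.05 (29.7%, against 13.9% of all genes), 10 of them lower at passage 11 and Itgad higher. That fit has 1 residual degree of freedom, the disagreement between both cell types.

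Itgb5 had the largest mean difference, -1.78 ± 0.25 (adjusted p = 0.357), and was the only member at least 2-fold lower in both cell types (2.70%, against 0.336% of all genes). It had 9.56 in oligodendrocytes of passage 11 and 11.80 in those of passage 3. In OPCs it had 10.28 at passage 11 and 11.59 at passage 3. The chains Lamb1 and Lamc1 were lower too: Lamb1 had 9.17 and 10.90 in oligodendrocytes of passages 11 and 3, and Lamc1 had 11.01 and 12.50. In OPCs their passage differences were smaller, -0.69 for Lamb1 and -0.56 for Lamc1.

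Lama5 had 9.25 and 10.37 in oligodendrocytes of passages 11 and 3, Lama1 had 8.63 and 9.64, and Lamb2 had 9.82 and 10.64. Of the 10 laminin genes 7 were lower at passage 11 in both cell types, and the other 3, Lama3, Lamb3 and Lamc3, were higher in both by 0.31 or less. All 6 laminins with an unadjusted p under 0.05 (Lama1, Lama4, Lama5, Lamb1, Lamb2 and Lamc1) had an adjusted p of 0.357. Over the 10 laminins the median passage difference was -0.91 in oligodendrocytes and -0.27 in OPCs, against 0.06 and 0.02 over all genes.

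Among the integrins the passage gap in oligodendrocytes was largest for Itga1 (-2.30), Itgb5 (-2.25) and Itga3 (-2.16). In OPCs Itga1 differed by 0.16 and Itga3 by -0.21. Itga5 had 8.24 and 9.86 in oligodendrocytes of passages 11 and 3 and differed by -0.36 in OPCs. The passage 11 oligodendrocyte values of Itga1, Itga3 and Itga5 were below the median of all gene values and can be background. Itga7 was lower in both, by -1.42 in oligodendrocytes and -0.78 in OPCs, and Itga6 likewise, by -0.95 and -0.35. Itga4 differed by -0.30 in oligodendrocytes and by 1.23 in OPCs. Itga8, Itgb1 and Itgb8 differed by 0.31 or less in either cell type. Of the 14 members lower at passage 11 in both cell types (37.8%, against 28.5% of all genes), 13 had the larger difference in oligodendrocytes. Another 13 members were higher at passage 11 in both (35.1%, against 40.1% of all genes). Over all 37 the median passage difference was -0.07 in oligodendrocytes and 0.05 in OPCs.

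**Figure D4:**
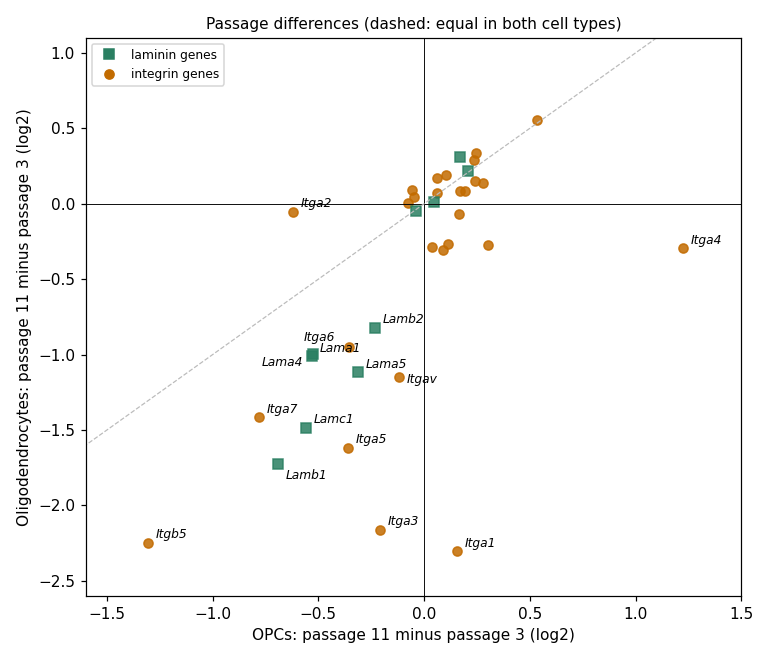
Passage 11 minus passage 3 in OPCs (horizontal axis, log2) and in oligodendrocytes (vertical axis, log2) for each of the 37 genes, squares for laminins and circles for integrins, with a dashed line where both cell types would be equal. Itgb5 lay at -1.31 in OPCs and -2.25 in oligodendrocytes, while Itga1 and Itga3 were near 0 in OPCs and below -2 in oligodendrocytes.

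Some contractile and mesenchymal markers were also lower at passage 11. The smooth muscle gene Tagln had 9.49 and 13.34 in oligodendrocytes of passages 11 and 3, and 9.29 and 10.89 in OPCs of passages 11 and 3. Acta2, smooth muscle actin, had 11.87 and 13.79 in oligodendrocytes, and 11.66 and 12.81 in OPCs. Of the 10 markers of fibroblasts, pericytes and smooth muscle, 3 were at least 2-fold lower in oligodendrocytes of passage 11 (Acta2, Tagln and Dcn), against 3.16% of all genes. By any amount 8 of the 10 were lower and 2 higher, against 8556 lower of all 19938 genes. Their median difference was -0.56, against 0.06 over all genes. The log2 of their summed level was 12.98 and 14.85 in oligodendrocytes of passages 11 and 3, 12.76 and 13.58 in OPCs of passages 11 and 3, 12.52 in the rosette and 12.93 in EpiSCs. The fibrillar collagen genes Col1a1, Col1a2 and Col3a1 differed by 0.19 or less between the oligodendrocyte arrays, and the pericyte receptor gene Pdgfrb had 8.53 and 9.49. The astrocyte gene Gfap had 8.69 and 10.50 in oligodendrocytes of passages 11 and 3. It had the largest drop of 8 astrocyte markers, of which 4 were lower and 4 higher at passage 11. The log2 of the summed astrocyte marker level was 14.53 and 14.43 in oligodendrocytes of passages 11 and 3, and 14.35 and 14.81 in OPCs. Of the 9 neuron markers, 7 were lower and 2 higher at passage 11 in oligodendrocytes, between -4.44 and 1.21 (median -0.17). In OPCs 6 of them were lower and 3 higher, between -2.66 and 0.29 (median -0.24). Their log2 summed level was 13.36 and 14.06 in oligodendrocytes of passages 11 and 3, and 13.02 and 13.34 in OPCs. The part of such cells in the laminin and integrin values was not tested.

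The other genes of the pathway were read from 5 lists. In oligodendrocytes against OPCs, limma called 0 genes in any of the 5 (0.446% of all genes were called). The unadjusted limma p was under 0.05 for 1 of 24 basement membrane genes, 1 of 16 of the dystroglycan complex and 3 of 10 further receptors. It was also under 0.05 for 4 of 23 ligands and 8 of 45 adhesion genes. Those shares are 4.17%, 6.25%, 30.0%, 17.4% and 17.8%, against 12.3% of all genes. Of 24 other basement membrane genes 1 rose in OPCs over the rosette, Smoc1, a matrix calcium-binding protein gene, by 1.45 ± 0.23 (limma adjusted p = 0.0427). Of all genes, 1.26% were called higher in that comparison and 1.87% lower. No gene of the list was called lower there, and 4 of the 24 had an unadjusted p under 0.05 (16.7%, against 15.4% of all genes). In the rosette 3 of the 24 were at least 2-fold lower than in EpiSCs (12.5%, against 3.69% of all genes), namely Nid2, Sparc and Frem2, and 1, Frem1, was higher (4.17%, against 6.91% of all genes). Nid2, a nidogen that links laminin to collagen IV, had 8.51 in the rosette and 10.82 in EpiSCs. Chosen after its values were seen, its relative Nid1 had 8.75 and 11.80 in oligodendrocytes of passages 11 and 3, and 8.69 and 11.13 in OPCs. It was the only gene of the list at least 2-fold lower at passage 11 in both (4.17%, against 0.336% of all genes). By any amount, 19 of the 24 were lower at passage 11 in oligodendrocytes and 5 higher (median -0.32, against 0.06 over all genes). Npnt, the nephronectin ligand of the Itga8 receptor and named for that role, had 9.39 and 11.53 in oligodendrocytes of passages 11 and 3, against 9.28 and 9.92 in OPCs (0.86 ± 0.70, adjusted p = 0.774). Only the passage 3 oligodendrocyte array stood far above the OPC arrays.

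None of the 16 measured genes of dystroglycan and its complex was called by limma in a tested comparison. Over all genes 3.13% were called in OPCs against the rosette and 0.446% in oligodendrocytes against OPCs. In OPCs against the rosette 5 of the 16 had an unadjusted limma p under 0.05 (31.2%, against 15.4% of all genes). Dag1, dystroglycan itself, lay between 11.36 and 12.01 on all 6 arrays. In oligodendrocytes 13 of the 16 were lower at passage 11 by any amount and 3 higher (median -0.23, against 0.06 over all genes). Of 10 further laminin receptors and heparan sulfate proteoglycans 1 rose in OPCs over the rosette (1.26% of all genes were called higher). This was the syndecan gene Sdc3, by 1.20 ± 0.18 (limma adjusted p = 0.0364). Sdc3 had 12.21 and 12.19 in OPCs of passages 11 and 3, 10.99 in the rosette and 8.95 in EpiSCs. Chosen after its values were seen, the adhesion receptor gene Adgrg6 had 11.20 and 11.19 in OPCs, against 7.74 in the rosette, and did not pass (limma adjusted p = 0.106). The rosette value of Adgrg6 and the EpiSC value of Sdc3 were below the median of all gene values and can be background. At passage 11, 8 of these 10 genes were lower in oligodendrocytes by any amount and 2 higher (median -0.26).

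Of 23 measured integrin ligands other than laminins, limma called 2 lower in OPCs than in the rosette and 0 higher. Of all genes, 1.87% were called lower and 1.26% higher. L1cam, a neuronal adhesion molecule gene, fell by 3.13 (SE 0.16, adjusted p = 0.00583) and Edil3, a ligand of alpha v integrins, fell by 1.91 (SE 0.16, adjusted p = 0.00906). Both had been at least 2-fold higher in the rosette than in EpiSCs, Edil3 at 10.70 in the rosette against 6.60 in EpiSCs, and L1cam at 11.56 in the rosette against 8.64 in EpiSCs. Both EpiSC values were below the median of all gene values and can be background. The log2 summed level of 9 neuron markers was 13.02 and 13.34 in OPCs of passages 11 and 3, against 15.70 in the rosette, and its part in the L1cam value was not tested. At passage 11, 9 of the 23 were at least 2-fold lower in oligodendrocytes (39.1%, against 3.16% of all genes) and 2 of these, Fn1 and Thbs2, in OPCs as well. Fn1, fibronectin, chosen after its values were seen, had 10.01 and 13.14 in oligodendrocytes of passages 11 and 3, and 10.23 and 11.62 in OPCs.

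Of 45 genes of integrin adhesion and signalling, 1 rose in OPCs over the rosette (1.26% of all genes were called higher). This was Dock1, a guanine nucleotide exchange factor gene for Rac, by 2.44 ± 0.24 (limma adjusted p = 0.0133). Dock1 had 11.41 and 11.16 in OPCs of passages 11 and 3, 8.84 in the rosette and 10.58 in EpiSCs. Its rosette value was below the median of all gene values and can be background. In the rosette 6 of the 45 were at least 2-fold lower than in EpiSCs (13.3%, against 3.69% of all genes). Another 3 were at least 2-fold higher (6.67%, against 6.91% of all genes), among them Fyn, a kinase gene of the oligodendrocyte lineage, at 11.97 in the rosette and 10.22 in EpiSCs. In oligodendrocytes of passage 11, 9 of the 45 were at least 2-fold lower than at passage 3 (20.0%, against 3.16% of all genes), namely Tln1, Parva, Tgfb1i1, Vcl, Flna, Actn1, Actn4, Cav1 and Cd151. Talin, vinculin, filamin and the alpha-actinins among their products link integrins to actin. Over all 45 the median passage difference was -0.31 in oligodendrocytes and -0.15 in OPCs.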

How the data were processed

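Labelled RNA of 6 cultures was measured, each from 150 ng of total RNA on 1 Affymetrix whole-transcript array. The deposited log2 values were made by the authors with RMA, and the submitters' processing notes name Affymetrix Expression Console. No label or header gives its version or options. The values ran from 3.26 to 14.9, and array medians over genes from 8.98 to 9.04. Precision is limited by how few arrays there are.

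Of 35556 transcripts, 21789 carried 1 gene symbol, 1621 several and 12146 none, and 3 rows that share a member's symbol with another gene were left out. The row with the highest mean over the arrays stood for a gene, which gave 19938 genes. Symbols were matched by Entrez ID to RefSeq (21698 rows found, 0 symbols changed).

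The test was that of limma 3.58.1 (R 4.3.3, lmFit and eBayes, two-sided), with Benjamini-Hochberg adjustment over all 19938 genes and calls at adjusted p under 0.05. All 6 arrays entered 1 fit with 4 cell types (2 residual and 3.32 prior degrees of freedom). For passage the fit held the 4 arrays that have one, and cell type as a covariate (1 residual and 3.19 prior degrees of freedom). Nothing says that the arrays of a group came from separate differentiations, so the p-values cover only how these samples vary, passage included, which may be technical. Passage 3 is replicate 1 and passage 11 replicate 2. The labels state that oligodendrocytes of a passage were made from OPCs of that passage, and the passage deviations of OPC and oligodendrocyte arrays correlated at 0.50 across genes, so passage was used as a block in an alternative fit. Other alternatives were leaving out each replicate, a variance trend, a filter on dim genes, quantile normalization, averaging a gene's rows and fitting fewer arrays.

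The members and the gene lists were chosen with earlier results of these data known. Every member is accounted for. Values per array are given for members called, at least 4-fold apart between rosette and EpiSC, or past 2-fold the same way at both passages (or in both cell types), with the brighter side above the median; values per array of other members were added after they were seen. Of each pathway list up to 4 genes a comparison were to be named, those called (rosette against EpiSC: at least 2-fold) with the largest difference; other names were chosen after their values were seen. Summed levels are sums of linear values. Promoter windows are from RefSeq on GRCm38.p6.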

Additional observations from a re-analysis of the deposited data

Results flagged for a closer look

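Itga1 moved in opposite directions at the 2 passages when OPCs became oligodendrocytes: the difference was -0.97 at passage 11 and 1.49 at passage 3. Each was larger than the 95th percentile of the absolute difference between the OPC arrays over all genes, 0.49. Between the oligodendrocyte arrays that percentile was 0.905, which the passage 11 difference exceeded by little. Each passage has 1 array per cell type, and the difference between passages was not tested. The Itga1 values were 8.52 and 10.83 in oligodendrocytes of passages 11 and 3, against 9.50 and 9.34 in OPCs. The passage 11 oligodendrocyte value was below the median of all gene values and can be background. Only the members were searched for such a pattern, so the share of all genes that would show it is not known.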

How the results depend on the processing

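With passage as a replicate block, calls in OPCs against the rosette went to 1206 over all genes and to 4 over the 37 members, against 624 and 1. In oligodendrocytes against OPCs the block left 0 members called, against 1, and 83 genes, against 89. Between leave-one-out fits, calls in OPCs against the rosette ranged from 156 to 2897 genes and from 1 to 12 members, and in oligodendrocytes against OPCs from 2 to 2919 genes and from 0 to 9 members. The highest counts came without an oligodendrocyte replicate, where the 1 residual degree of freedom is the OPC pair; the lone array is assumed to vary like it. The variance trend called 2 members in OPCs against the rosette (Itga8 and Lama4) and 1 gene between passages. In oligodendrocytes against OPCs, leaving out genes at or below the median gave 20 genes and 0 members, and quantile normalization 14 genes and 0 members. In oligodendrocytes against OPCs without one oligodendrocyte array, Itga1 ranged from -0.89 (replicate 1 left out) to 1.41 (replicate 2 left out), against 0.26, and Itga7 from -0.026 to 1.39, against 0.68. The cause was not tested. The passage fit could not be tested without a replicate, since no residual degree of freedom is left, so the other cell type's difference stands there. Of 292 single-gene values under an alternative, 241 kept their direction and side of the threshold or stayed within the spread, 28 became called in the same direction, 5 lost the call (all Itga8 in oligodendrocytes), 16 moved and 2 reversed, of which Itga1 also passed the threshold (adjusted p = 0.00513). Part of this agreement was fixed in advance. Averaging rows could change the difference of no member but Itgad, and fitting only OPC and oligodendrocyte arrays gave the same result. The filter on dim genes could not change rosette minus EpiSC. For passage the spread was itself made of the passage gaps, so Itga5 counted as within it at -0.36 and at -1.62, against -0.99. In the rosette against EpiSCs, Lama4 was at -0.94 after quantile normalization, against -1.04, and so no longer 2-fold lower.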
